A study of Drosophila melanogaster with 3 samples.

Results

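The nuclear genes for the proteins of the mitochondrial ribosome were examined for binding of CG3995 in Drosophila melanogaster embryos. They were taken from the Ensembl annotation by symbol: every gene whose symbol starts with mRpL or mRpS, plus bonsai and tko, which carry older names. This gave 75 of 13945 protein-coding genes, 47 for the large subunit and 28 for the small subunit. A gene was called bound when the summit of a peak in the authors' thresholded list of 4260 peaks lay within 500 bp of one of its annotated starts, and 44 of the 75 genes (58.7%) were bound. By the same rule 28.2% of all protein-coding genes were bound. When each summit counted only for the gene of its nearest start, 24 members were bound, beside 20.6% of protein-coding genes.

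The proteins are encoded in the nucleus, made in the cytosol and imported into mitochondria, where they assemble with mitochondrial ribosomal RNA into a ribosome that makes a few core subunits of the respiratory chain. Many descend from bacterial ribosomal proteins and keep the bacterial number, while others were added to the ribosome in mitochondria and have higher numbers. In flies, tko encodes the counterpart of bacterial S12, and its mutants are known for seizures after mechanical shock. Chromatin immunoprecipitation followed by sequencing was carried out on 3 biological replicates, which formed one group with no second condition. The embryos were of both sexes, pooled, aged 0 to 24 hours, and came from a stable transgenic line in which CG3995 carried GFP at its C terminus. An antibody to GFP recovered the chromatin, so the measurement was of the tagged protein over whole organisms of many ages and cell types.

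Stretches at the summits of 5 strong bound members, and of the weaker mRpL10 for its DRE, show the DNA where the authors placed the centre of each peak, and each is clipped to the bases outside annotated exons. All are dm6 sequence from the RefSeq copy of release 6, 5′ to 3′ along the member gene, with the 9 bases centred on the summit in capitals. The stretch of mRpL9 is chr3R:15330601-15330721 (plus strand), that of mRpS10 chr3R:15229473-15229593 (plus strand), that of tko chrX:2443977-2444066 (minus strand) and that of mRpL4 chr2L:16329133-16329244 (minus strand). In the stretches of mRpS23, chr2L:13835199-13835319 (minus strand), and mRpL10, chr2L:203696-203778 (plus strand), capitals mark the DRE, TATCGATA, the DNA replication-related element bound by the factor Dref, which lay within 50 bp of both summits.
mRpL9: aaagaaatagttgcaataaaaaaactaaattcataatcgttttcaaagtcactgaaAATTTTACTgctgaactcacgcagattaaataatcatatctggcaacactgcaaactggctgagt
mRpS10: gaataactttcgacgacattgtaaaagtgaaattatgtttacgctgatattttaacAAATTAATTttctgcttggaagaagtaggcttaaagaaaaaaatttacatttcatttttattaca
tko: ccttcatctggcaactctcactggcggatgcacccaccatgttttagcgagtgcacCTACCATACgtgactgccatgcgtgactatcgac
mRpL4: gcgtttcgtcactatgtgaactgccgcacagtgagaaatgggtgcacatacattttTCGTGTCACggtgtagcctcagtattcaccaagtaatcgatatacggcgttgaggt
mRpS23: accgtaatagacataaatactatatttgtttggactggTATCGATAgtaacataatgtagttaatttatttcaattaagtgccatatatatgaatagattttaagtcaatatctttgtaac
mRpL10: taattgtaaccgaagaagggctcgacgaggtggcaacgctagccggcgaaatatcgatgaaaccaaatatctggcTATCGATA

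A different set of letters was common at the starts of the genes themselves. The E-box CAGCTG is a palindrome of the kind read by basic helix-loop-helix factors. It stood in the promoters of 42 of the 75 members (56.0%), bound and unbound, against 17.7% of all protein-coding genes. Capitals mark it in the bases just upstream of 6 of them. The bound genes are mRpL45 at chr3R:22618392-22618491 (plus strand), mRpS2 at chr2L:4850420-4850519 (minus strand) and mRpL32 at chr3R:31252772-31252871 (plus strand). The unbound genes are mRpL14 at chrX:2344650-2344749 (minus strand), mRpS35 at chr3L:2780799-2780898 (plus strand) and mRpS9 at chr3R:7902668-7902767 (minus strand), the 3 members near which no list held a region.
mRpL45: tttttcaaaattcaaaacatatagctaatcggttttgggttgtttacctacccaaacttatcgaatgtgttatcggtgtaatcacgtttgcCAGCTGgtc
mRpS2: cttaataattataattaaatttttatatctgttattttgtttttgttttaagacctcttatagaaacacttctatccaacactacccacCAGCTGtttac
mRpL32: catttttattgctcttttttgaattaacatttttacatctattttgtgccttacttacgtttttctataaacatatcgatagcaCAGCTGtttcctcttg
mRpL14: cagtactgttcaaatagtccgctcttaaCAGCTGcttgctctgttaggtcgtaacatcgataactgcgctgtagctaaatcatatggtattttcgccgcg
mRpS35: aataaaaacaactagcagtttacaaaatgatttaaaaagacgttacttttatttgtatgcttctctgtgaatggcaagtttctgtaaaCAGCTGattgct
mRpS9: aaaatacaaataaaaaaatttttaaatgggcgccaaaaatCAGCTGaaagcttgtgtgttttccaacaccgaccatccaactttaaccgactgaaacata

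Only peak lists were analysed, so the read depth of each library is unknown. The replicate lists held 30000, 28051 and 24171 regions, including background. The strengths are the authors' signal values, which have no stated unit and a scale that differed between lists, so replicates were compared by rank. For that comparison the 4260 strongest regions of each replicate were used, as many as the thresholded list held. All 4260 thresholded peaks were also the strongest of the list the authors called on the pooled replicates, so that list is not a separate sample. Whole embryos were used, so binding in few cells and weaker binding in many cells cannot be told apart.

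Members were bound in every replicate at a like share. With the strongest regions of each replicate, 42 members were bound in replicate 1, 43 in replicate 2 and 39 in replicate 3, a mean of 41.3 ± 2.08 (SD, n = 3). The background was 28.0% of protein-coding genes in replicate 1, 28.0% in replicate 2 and 26.3% in replicate 3. All 3 member shares, from 52.0% to 57.3%, lay above these. Since the lists were chosen with results of these data known, the counts are given as a description without a test. On the chromosome arms, 9 of 12 members on 2L were bound (26.6% of the arm's protein-coding genes), 10 of 13 on 2R (27.4%) and 8 of 17 on 3L (27.1%). On 3R 13 of 21 were bound (30.5%), and on X 4 of 12 (28.3%), the lowest share of members at 33.3%.

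Of the large subunit genes 25 of 47 (53.2%) were bound, and of the small subunit genes 19 of 28 (67.9%). Replicate 1 had 24 large and 18 small subunit genes, replicate 2 had 24 and 19, and replicate 3 had 23 and 16. The small subunit share exceeded the large by 13.2, 16.8 and 8.21 percentage points in the 3 replicates, a mean of 12.7 ± 4.31 (SD, n = 3). An exact sign-flip permutation test, two-sided, gave p = 0.25, which is the smallest value that 3 replicates allow. The replicates scored the same genes, so the SD and the test measured how repeatable the calls were. They cannot decide whether the subunits differ. The order also turned with the assignment: when a summit counted only for the gene of the nearest start, 16 of 47 large and 8 of 28 small subunit genes were bound. It differed by neighbour as well. With another gene's start within 500 bp, 18 of 35 large and 16 of 20 small subunit genes were bound. Without one, 7 of 12 large and 3 of 8 small subunit genes were bound. These small groups were not tested. Subunits were assigned by symbol, and the mammalian counterparts of mRpS30 and mRpS18A sit in the large subunit. With those 2 genes counted as large, a choice made after seeing the data, the thresholded list gave 27 of 49 large and 17 of 26 small subunit genes, and the replicate differences fell to between 2.83 and 12.3 percentage points.

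Members that keep a bacterial number were bound in 29 of 44 cases (65.9%), and those with a higher, mitochondrial number in 15 of 31 (48.4%). The order was the same in both subunits. In the large subunit 17 of 28 genes with bacterial numbers and 8 of 19 others were bound, and in the small subunit 12 of 16 and 7 of 12. These differences were not tested.

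**Figure D1:**
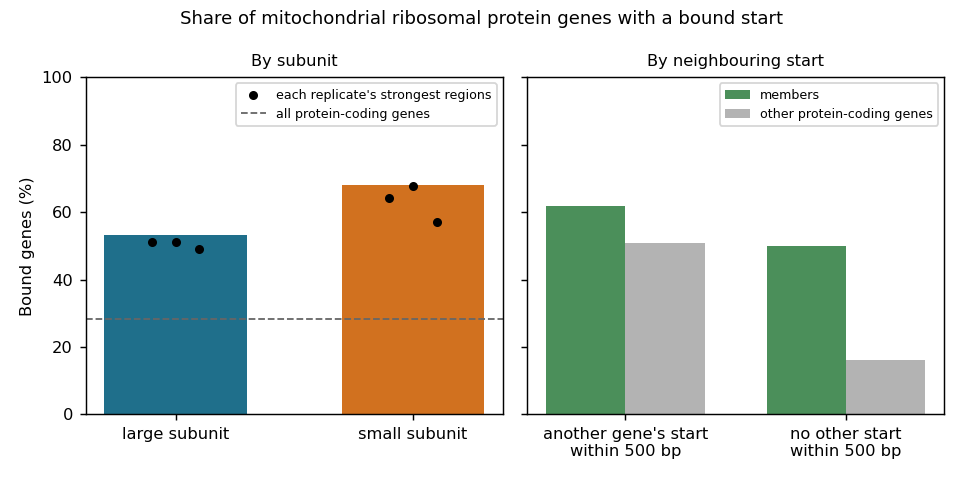
Share of mitochondrial ribosomal protein genes with a bound start, in percent. Left, bars give the thresholded list for each subunit (53.2% large, 67.9% small), points the strongest regions of each of the 3 replicates, and the dashed line all protein-coding genes (28.2%). Right, members (green) and other protein-coding genes (grey) with and without another gene's start within 500 bp: the members stand 61.8% against 50.8% with such a neighbour and 10 of 20 genes against 16.2% without.

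The members lie close to other genes, which matters for a measure by distance. Another gene's start was within 500 bp of a start of 55 members (73.3%), against 34.4% of protein-coding genes and 52.2% of the 92 cytosolic ribosomal protein genes. With such a neighbour 34 of 55 members (61.8%) were bound, where the background for genes of that kind was 50.9%. Without one, 10 of 20 members were bound, where the background was 16.3%. The gap between members and background was smaller in the class that holds most of them, and the difference between the 2 gaps was not tested. The 10 bound members without a neighbour included tko, mRpL9, mRpS29 and mRpL4.

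At 35 of the 44 bound members (79.5%) the summit lay within 500 bp of another gene's start as well. This was so for 62.7% of all bound protein-coding genes and 55.8% of the bound cytosolic ribosomal protein genes. The nearest other gene was on the opposite strand at 33 of the 35, with a median of 285 bp between the divergent starts. At 25 of them the summit lay between the starts. The other start was nearer to the summit than the member's own at 23 members, the member's own was nearer at 11, and at mRpL53 both were equally near. The member's own start was thus counted as the nearest at 21 of 44 bound members (47.7%), mRpL53 among them. The share was 68.0% over all bound protein-coding genes and 87.0% over bound cytosolic ribosomal protein genes. In each share a tie counted for 1 gene only. No summit was shared by 2 members.

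Summits lay upstream of the member's nearest start at 39 of 44 bound genes. The median position was 112.5 bp upstream, from 416 bp upstream at mRpS30 to 72 bp downstream at mRpL23. The median was 85 bp upstream over all bound protein-coding genes and 35 bp upstream over the bound cytosolic ribosomal protein genes. The distance went with the neighbour. At the 9 members alone at their summit the median was 23 bp upstream and all 9 summits lay within 100 bp of the start, while at the 35 members that share a summit it was 145 bp upstream. Members alone at their summit also had a higher median signal, 489 against 268, though the ranges overlapped widely (177 to 3596 and 132 to 10414).

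**Figure D2:**
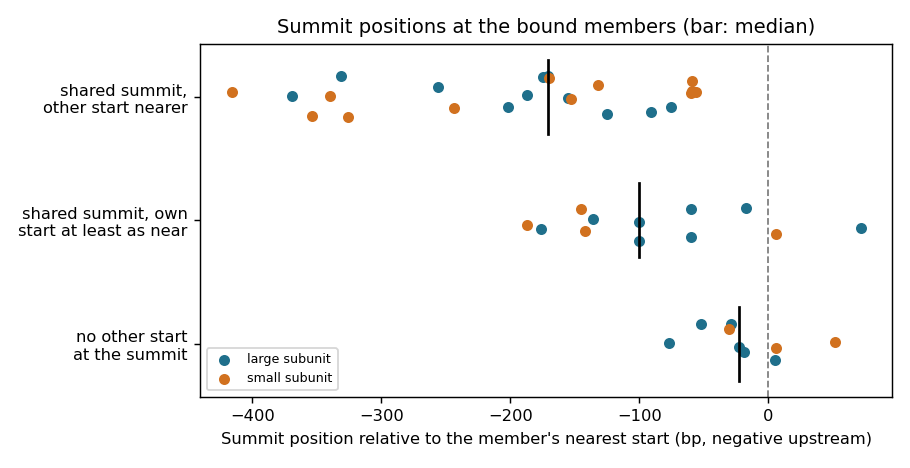
Position of the summit relative to the member's nearest start, in bp, with negative values upstream, for the 44 bound members by whether another gene's start shares the summit. Each point is a gene, coloured by subunit, with random vertical spread for legibility, and the bars are medians: summits at the 9 genes without a neighbour lie within 77 bp of the start, and those with a nearer neighbour reach 416 bp upstream.

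The strongest large subunit gene was mRpL37, with a signal of 10414. It ranked 78 in the thresholded list and 78, 72 and 84 in replicates 1, 2 and 3. Its summit lay 100 bp upstream of its start. mRpL42 had a signal of 3757 and replicate ranks of 185, 197 and 185. Its summit was 60 bp upstream of its start and 76 bp upstream of PIG-N, whose mammalian counterpart acts in GPI anchor synthesis. mRpL9, the counterpart of bacterial L9, had a signal of 3596 and replicate ranks of 193, 194 and 209. No other start was within 500 bp of that summit, so at mRpL9 the peak could be placed at a single gene.

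Signals then dropped by more than a factor of 3 within the large subunit. mRpL41 had 1105, with replicate ranks of 410, 382 and 374, and shared its summit with the long non-coding gene lncRNA:CR44463 on the same strand. mRpL23, whose bacterial counterpart lines the exit of the peptide tunnel, had 847 and replicate ranks of 486, 528 and 466. Its summit was the farthest downstream of all bound members, 72 bp inside the gene and 122 bp upstream of CG9004. mRpL4 had 698 and replicate ranks of 560, 587 and 601, and mRpL51 had 458 and replicate ranks of 878, 980 and 1077. mRpL4 was alone at its summit, while the summit near mRpL51 was nearer to Uba4, whose yeast counterpart activates a sulphur carrier for tRNA thiolation. mRpL3, whose bacterial counterpart reaches the peptidyl transferase centre, had 372, replicate ranks of 1190, 1433 and 918, a summit 5 bp inside the gene and a DRE.

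Among small subunit genes mRpS23 was highest, with a signal of 3505 and replicate ranks of 188, 200 and 222. Its summit, 187 bp upstream, lay between it and CenG1A, an Arf GTPase-activating protein, and held a DRE. mRpS30 had 2268 and replicate ranks of 255, 271 and 229. That summit was 416 bp upstream of mRpS30 and only 48 bp upstream of the divergent Paf-AHalpha, so the neighbour's start was much the nearer. mRpS10 had 1180 and replicate ranks of 404, 362 and 358, at nearly the same distance from its own start (132 bp) and from that of Art3 (125 bp), which encodes an arginine methyltransferase.

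tko had a signal of 773 and replicate ranks of 475, 488 and 785, so its region was weaker in replicate 3 than in the others. mRpS29, whose mammalian counterpart is the GTP-binding protein DAP3, had 712 and replicate ranks of 623, 512 and 551. Both tko and mRpS29 were alone at their summits, 30 bp upstream and 6 bp downstream of the start. mRpS18A had 500.3, with replicate ranks of 910, 738 and 895, and its summit was nearer to CG31460. mRpS5 had 489, with replicate ranks of 984, 835 and 723, and was alone at its summit. The thresholded peak of mRpS21, with a signal of 390, overlapped no region of replicate 1, although that list had a region of rank 977 within 500 bp of the start. It ranked 1162 and 1142 in replicates 2 and 3, with the chaperone gene Droj2 nearer to the summit.

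The other bound members had signals of 373 (mRpS11) or less, and most shared their summit with a gene of another kind, while mRpL45, mRpL12 and mRpL10 were alone at theirs. bonsai, which encodes the counterpart of bacterial S15, had a signal of 196 and replicate ranks of 3051, 1984 and 3366, 43 bp from the start of Cdk9. Neighbours of other members included Cdk1 at mRpS7, AGO1 at mRpL53, Prosbeta2 of the proteasome at mRpL39, Apc2 at mRpS24 and Nop60B, a pseudouridine synthase, at mRpS17. Several neighbours also act in mitochondria: Mitofilin of the inner membrane cristae at mRpL35, Taz of cardiolipin remodelling at mRpL18, the protease HtrA2 at mRpL11 and qless of coenzyme Q synthesis at mRpL32. At each of these mitochondrial neighbours the summit was nearer to the neighbour's start than to the member's. The share of mitochondrial genes among all neighbours was not counted. All neighbours in this paragraph were named after their values were seen.

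**Figure D3:**
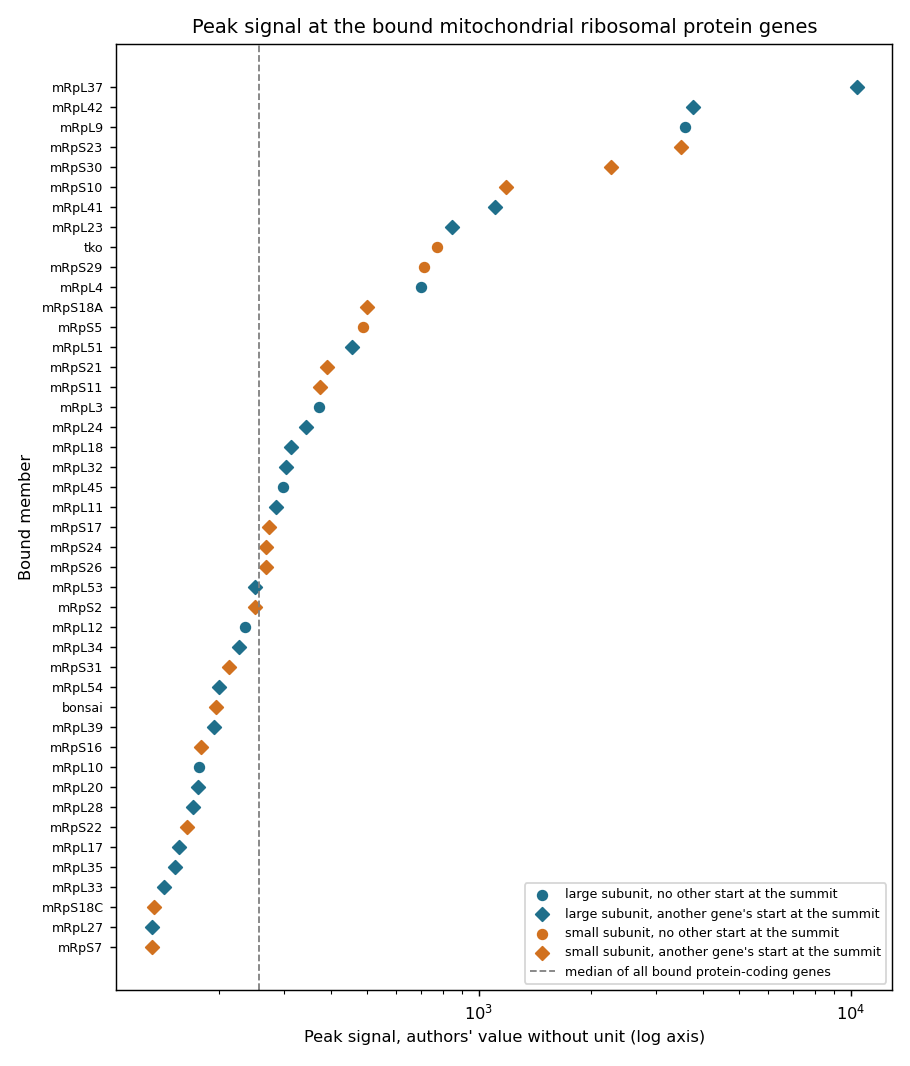
Signal of the strongest thresholded peak at each of the 44 bound members on a log axis, the authors' value without a unit, in order of rank. Colour gives the subunit, circles the 9 genes alone at their summit and diamonds the 35 that share it, and the dashed line the median of all bound protein-coding genes (256). The small subunit spans 132 at mRpS7 to 3505 at mRpS23, and the large subunit 132 at mRpL27 to 10414 at mRpL37.

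As a group the bound members were not set apart by strength. Their median signal was 279, 285 in the large and 273 in the small subunit, beside 256 over all bound protein-coding genes and 292 over the bound cytosolic ribosomal protein genes. When the thresholded list was cut by rank into 4 equal parts from strongest to weakest, the members numbered 14, 14, 10 and 6. All bound protein-coding genes fell into those parts at 31.4%, 26.3%, 23.6% and 18.7%, against 31.8%, 31.8%, 22.7% and 13.6% of the members.

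The replicates ranked the strong members alike and the weak ones less so. Of the 44 bound members 34 overlapped the strongest 4260 regions of all 3 replicates, 8 of 2 replicates, and 1 each of 1 and of none. The ratio of the highest to the lowest replicate rank had a median of 1.38, with 1.17 for members among the 1065 strongest peaks and 1.48 for the others. It passed 2 at 5 genes: mRpS16, mRpL53, mRpS11, mRpL54 and mRpL35. mRpS16 had the widest spread, with ranks of 2396, 2623 and 7246. The weakest rank of a member came from replicate 3 at 18 members, from replicate 2 at 14 and from replicate 1 at 12.

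**Figure D4:**
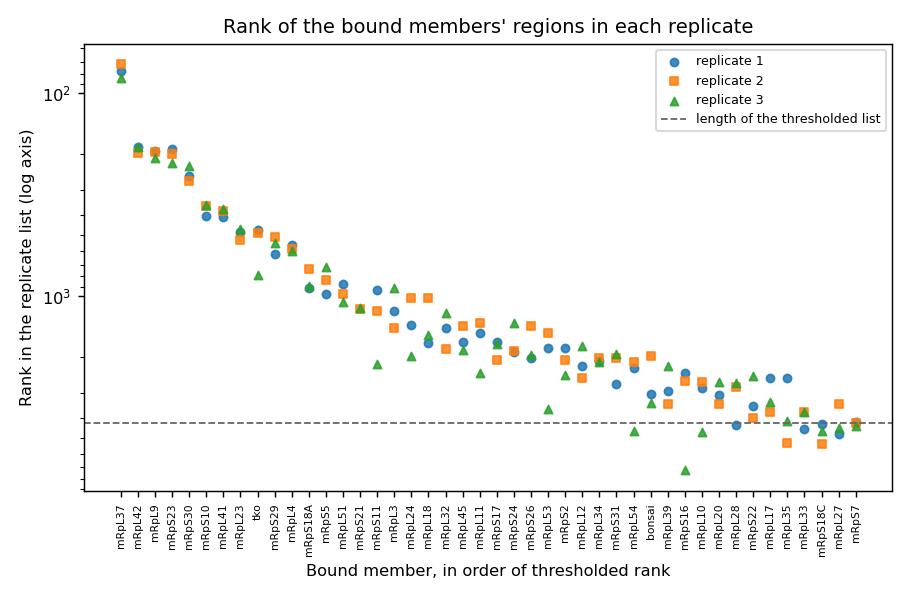
Rank of the region that overlaps each bound member's peak in replicates 1, 2 and 3 on a log axis with the strongest at the top, members in order of thresholded rank. The dashed line is the length of the thresholded list (4260): the strongest members nearly coincide, 10 members on the right or with a missing value have fewer than 3 points above the line, and mRpS16 spreads from 2396 to 7246. mRpS21 has no replicate 1 point.

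The threshold ran through a continuous range of signal. The weakest bound members were mRpS7 and mRpL27, both at 132, with thresholded ranks of 4090 and 4089. mRpS7 ranked 4198, 4240 and 4362 in the replicates, and mRpL27 ranked 4793, 3430 and 4462. mRpS18C (134) ranked 4262, 5405 and 4655. Every replicate list thus held a region that overlapped its peak, but outside the strongest 4260 of each. mRpL33 (142) ranked 4542, 3738 and 3749. All 4 shared their summit with another gene, and the other start was nearer at mRpS7, mRpL27 and mRpS18C.

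Just outside was mRpL2, whose bacterial counterpart is a core protein of the large subunit. Its pooled region had a signal of 126 and rank 4290, and it ranked 3580, 9030 and 4332 in the replicates. Of the 31 unbound members 25 (80.6%) had a pooled region within 500 bp of a start, against 40.5% of the protein-coding genes that were not bound. Another gene's start lay within 500 bp of 21 of the 31, and that background was not matched for such neighbours. The median pooled rank of the 25 with a pooled region was 10314 of 27868. Besides mRpL2, mRpL21 (5135), mRpL13 (5193), mRpL47 (5481), mRpL48 (5804), mRpS34 (6191) and mRpL36 (6312) had pooled ranks within 1.5 times the length of the thresholded list. A region below the threshold may be background, since the pooled and replicate lists include it by design.

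The list of unbound members has 4 that were among the strongest 4260 regions of at least 1 replicate: mRpL2 in replicate 1, mRpL13 in replicate 1 (3865), mRpL21 in replicate 3 (3822) and mRpS14 in replicate 2 (3044). None of the 4 was so in every replicate. The lists of replicates 1, 2 and 3 held a region near 26, 23 and 14 of the 31 unbound members, in the order of their lengths. mRpL14, mRpS35 and mRpS9 had no region in any list. Without read counts this does not give a level for them.

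The letters at the member summits were searched on both strands within 50 bp and set beside all 3114 thresholded summits near protein-coding starts. The DRE was found at 6 of 44 member summits (13.6%, against 9.15%): mRpS23, mRpS29, mRpL3, mRpL12, mRpL10 and bonsai. Of these, mRpS29, mRpL3, mRpL12 and mRpL10 were alone at their summits. Motif 1, GGTCACAC, was found at mRpS16 alone (2.27%, against 4.56%). TATAAA was at 7 member summits (15.9%, against 15.5%), and GCGCATGC, CCGGAAG and GAGAGAG were at none. These last were rare over all 3114 summits too (0.193%, 0.417% and 0.803%), so their absence from 44 summits says little. None of the sequences searched contains another. A match describes letters in the window and not a site of binding.

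The E-box CAGCTG was within 50 bp of 6 of 44 member summits (13.6%, against 6.29%), and the same letters were then searched in promoters, a step added after that share was seen. In the 300 bp from 250 bp upstream of the gene's start, 42 of 75 members (56.0%) held CAGCTG, against 17.7% of all protein-coding genes and 9.78% of cytosolic ribosomal protein genes. It was in 27 of 47 large subunit promoters and 15 of 28 small subunit promoters. Bound members held it in 22 of 44 cases and unbound members in 20 of 31 (64.5%), so the letters were not confined to the bound genes. Members with a neighbouring start held it in 56.4% and those without in 55.0%, where all protein-coding genes with such a neighbour had 23.4%.

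The E-box was concentrated at the start rather than at the summits. It began within 25 bp of the start in 29 of 75 members (38.7%), against 5.82% of protein-coding genes. It began from the start to 25 bp downstream in 19 members (25.3%, against 2.95%), and in the 25 bp upstream of the start in 10 members (13.3%, against 2.96%). At mRpL45 it began 9 bp upstream of the start, at mRpS2 11 bp and at mRpS35 12 bp. Among the strongest members, mRpL37, mRpL9, mRpS23, mRpS30 and mRpS10 held none in this window, while mRpL42, mRpL41 and mRpL23 did, 131, 9 and 28 bp upstream of the start.

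**Figure D5:**
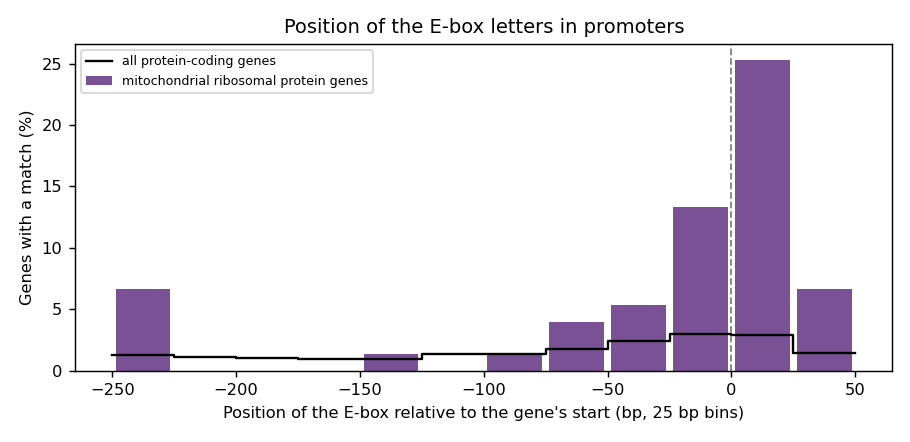
Share of genes, in percent, whose promoter holds the E-box letters CAGCTG at each distance from the start, in 25 bp bins with negative values upstream. Bars are the 75 mitochondrial ribosomal protein genes and the line all 13945 protein-coding genes: the bars peak at 25.3% just after the start, where the line is at 2.95%.

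The DRE was also found near the start, beginning within 25 bp of it in 10 members (13.3%), against 3.05% of all and 6.66% of bound protein-coding genes. Of the 20 members with no other start within 500 bp, 6 had it there, against 1.98% of protein-coding genes of that kind. Of the 55 members with a neighbouring start, 4 had it there (7.27%), near the 5.08% of protein-coding genes of that kind. In the 25 bp upstream of the start the DRE began in 8 of all 75 members (10.7%, against 2.13%). Over the whole window it stood in the promoters of 16 members (21.3%), against 9.36% of all and 19.4% of bound protein-coding genes. It was in 11 of 44 bound and 5 of 31 unbound members, and in 30.4% of cytosolic ribosomal protein genes. Among bound genes only, the DRE stood in the whole window of 11 of 44 members (25%) and 765 of 3936 protein-coding genes (19.4%). The E-box stood in 22 of 44 bound members and 826 of 3936 bound protein-coding genes, a wider gap than for the DRE. Unbound members were not set beside unbound protein-coding genes, and none of these differences was tested.

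Other nuclear genes of mitochondrial gene expression were counted by the same rule. PolG1, PolG2 and mtSSB, of mitochondrial DNA replication, were included with them. The list of 44 symbols was drawn up from general knowledge. Of these, 3 were not found or not unique, and 40 distinct genes were found. Of the 40 genes 18 (45.0%) were bound, against 28.2% of all protein-coding genes, with a median signal of 199. The summit was shared with another gene at 14 of the 18, where this was so for 62.7% of all bound protein-coding genes. Of all protein-coding genes with a neighbouring start 50.9% were bound. How many of the 40 genes have such a neighbour was not counted, so the 45.0% has no background matched for it. Of the 15 mitochondrial aminoacyl-tRNA synthetases, which charge the tRNAs, 4 (26.7%) were bound, close to the share of all protein-coding genes. These were ArgRS-m, AspRS-m, CysRS-m and TrpRS-m, with signals from 136 to 170. Of the other 25 genes 14 were bound, led by SLIRP2, an RNA-binding protein (832, replicate ranks of 478, 500 and 503), and the ribosome recycling factor mRRF2 (555, replicate ranks of 741, 805 and 677). Then came the pentatricopeptide repeat gene bsf (417), the release factor mRF1 (283), GatB (238), a subunit of the enzyme that amidates glutamyl-tRNA, the RNA polymerase PolrMT (211) and SLIRP1 (205). TFAM, which packages mitochondrial DNA and starts its transcription, was at 143. Both GatC and PolG2 lay at a single peak of 201, whose summit was nearer to the start of Polr2C than to either. GatA and mEFTu2 (both 196), mTerf3 (171) and mtSSB (169) were the remaining bound genes. The E-box was in 19 of the 40 promoters (47.5%), nearer to the share in the ribosomal protein members than to that of all protein-coding genes.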

How the data were processed

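CG3995 binding was measured by ChIP-seq in 3 biological replicates of embryos aged 0 to 24 hours, per the labels. The deposited files were dm6 peak lists with a signal value per region, made by the authors from alignments and a control library, per the submitters' notes. The aligner, peak caller and thresholds are not given in the sources used here, and control reads were not analysed here. Summits came from the files. Starts came from Ensembl release 115 on arms 2L, 2R, 3L, 3R, 4 and X (18164 genes, 23998 pairs of gene and start). Sequence came from RefSeq release 6. A summit within 500 bp of a start called a gene bound. Replicate regions were matched by an overlap of at least 1 bp. Assignment was tested on simulated summits.

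Members and lists were chosen with earlier results of these data known. Every member is eligible to be named. Full values are given for the 8 strongest bound members of each subunit and the 4 weakest, with their neighbours (1 neighbouring gene is not reported here), and for members on either side of the threshold. Replicate 1's list has exactly 30000 regions, which may be a limit. Python 3.11.15, numpy 2.4.6, pandas 2.3.3, scipy 1.17.1 and matplotlib 3.10.9 were used. Alternatives covered distance, peak subset, replicates and starts.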

Additional observations from a re-analysis of the deposited data

How the results depend on the processing

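Of 111 recomputed values 85 kept to the reported value, within 1.5 times for counts and within the replicate spread for medians. With the stronger part of the peaks (thresholded rank up to the list's middle) 28 members were bound, 15 of the large subunit, beside 16.3% of protein-coding genes, 20 shared a summit, the median signal was 424 and the median offset -88.5 bp. Counting only the gene of the nearest start, over all summits, left 24 members, 16 large and 8 small, so the order of the subunit shares turned (20.6% of protein-coding genes). At 200 bp 21 members shared a summit and the median offset was -76 bp, and at 1000 bp the offset was -100 bp. Peaks in all replicates gave a median signal of 328. The strongest regions of replicate 2 alone gave an offset of -100 bp. Motif 1, with 1 match as reported, had 0 matches in windows of 25 bp, in the stronger part, in peaks found in all replicates and in each replicate alone, and 2 in windows of 100 bp. To set 1 replicate aside, thresholded peaks were kept only if they overlapped the strongest regions of both other replicates. This filtered a list called on all 3 replicates, so the number of bound members could only fall. It left 35 to 38 members bound, 20 to 21 large and 15 to 17 small, with 27 to 29 shared summits. The median signal was then 300.2 to 314 and the offset -132 to -100 bp, with 5 to 6 DRE and 0 to 1 Motif 1 matches. The E-box was in 40 members in the window from 100 bp upstream to 50 bp downstream (12.0% of protein-coding genes). In the 100 bp upstream alone it was in 17 members (22.7%, against 8.13%). Over every annotated start it was in 43 members (22.3% of protein-coding genes). Median signals of replicate lists were not compared directly, because their scales differ. The replicate spread for the median signal (26.1) came from ratios instead. In each replicate the members' median was divided by that of bound protein-coding genes, and the SD was scaled to the thresholded list. No paired analysis was possible because the study has 1 group. Depth is unknown, so the absence of a region does not show absence of binding.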
